A study of Mus musculus with 6 samples.

Results

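The adipocyte genes of developing skin are 10 genes of fat cells: Fabp4, Adipoq, Plin1, Cidec, Pparg, Lpl, Cd36, Cfd, Retn and Ucp1. They were found by gene symbol in the platform annotation, which names 8 of the 10 on 14 probe sets, of 45037 probe sets in all without the controls. Plin1 and Cfd have no probe set named for them in the annotation used here and are not analysed here. Of the 14 probe sets, 13 (7 genes) lay at or above the median signal of 137 and entered the test, and that of Ucp1 lay below it. Back skin from 1 region was taken at e18.5 from 3 Get1 -/- mice and 3 Get1 +/+ mice, and the RNA of each mouse was read on its own array. Get1 is an earlier name of Grhl3, a grainyhead-like transcription factor of surface epithelium. The labels name no strain, sex, treatment or litter and do not say which part of Get1 is deleted, nor what else both genotypes carry. They do not describe the 3 mice of a genotype further, and the p-values below measure the spread between these arrays.

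White fat cells of the skin form a layer below the dermis late in mouse gestation. Pparg is the nuclear receptor that drives their formation, together with C/EBP factors, and it acts as a pair with RXR on the genes of the mature cell. Lpl releases fatty acids from lipoproteins, Cd36 takes them up, Fabp4 binds them in the cytoplasm, and Plin1 and Cidec coat the lipid droplet. Adipoq, Retn and Cfd encode the secreted factors adiponectin, resistin and adipsin, and Ucp1 is the uncoupling protein of brown fat. Lpl and Cd36 are also made in muscle, and Cd36, Lpl and Fabp4 are made in macrophages, Cd36 and Fabp4 in capillary endothelium too.

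Promoter windows, from 250 bases before to 50 after the start of the gene, were taken from RefSeq (GRCm38.p6). The table holds 11 windows for 8 of the 10 genes, and Fabp4 and Lpl are not in it. A set of 4 windows is printed, because Adipoq and Cidec share an array pattern described below, Cd36 follows another, and Pparg encodes the factor of the pathway. Each is written 5′ to 3′ as the gene is read. Capitals mark the motifs AGGTCA (the repeated unit of PPAR and RXR sites), TTGCNNAA (a C/EBP type site), CCAAT and TATAAA, each searched on both strands with overlaps allowed.
Adipoq, chr16:23146286-23146585, plus strand: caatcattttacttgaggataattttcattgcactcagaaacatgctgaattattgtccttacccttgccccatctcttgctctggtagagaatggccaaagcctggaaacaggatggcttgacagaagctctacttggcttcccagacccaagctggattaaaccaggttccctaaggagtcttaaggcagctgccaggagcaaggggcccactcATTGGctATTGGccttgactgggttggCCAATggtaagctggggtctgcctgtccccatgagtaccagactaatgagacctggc
Cidec, chr6:113434715-113435014, minus strand: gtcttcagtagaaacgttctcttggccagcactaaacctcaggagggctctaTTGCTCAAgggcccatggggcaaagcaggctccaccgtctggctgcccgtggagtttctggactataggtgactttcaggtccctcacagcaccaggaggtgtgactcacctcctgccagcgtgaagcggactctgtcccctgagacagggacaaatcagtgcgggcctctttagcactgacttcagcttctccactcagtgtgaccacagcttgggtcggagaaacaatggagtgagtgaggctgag
Cd36, chr5:17835847-17836146, minus strand: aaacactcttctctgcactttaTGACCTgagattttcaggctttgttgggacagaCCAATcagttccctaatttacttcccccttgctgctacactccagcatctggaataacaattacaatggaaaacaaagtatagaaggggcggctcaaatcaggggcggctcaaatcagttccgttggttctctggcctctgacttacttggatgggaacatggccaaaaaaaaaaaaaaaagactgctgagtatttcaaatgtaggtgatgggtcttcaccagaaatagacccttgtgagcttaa
Pparg, chr6:115421816-115422115, plus strand: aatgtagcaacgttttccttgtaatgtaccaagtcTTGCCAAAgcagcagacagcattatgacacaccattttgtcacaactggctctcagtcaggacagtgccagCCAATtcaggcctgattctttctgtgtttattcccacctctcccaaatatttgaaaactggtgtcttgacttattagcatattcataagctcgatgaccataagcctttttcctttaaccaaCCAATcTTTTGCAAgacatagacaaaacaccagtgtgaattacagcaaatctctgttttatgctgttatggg
AGGTCA occurred in 4 of the 11 windows, those of Cd36 and Ucp1 and the other two of Pparg, and in 16.3% of all 32851 promoter windows. TTGCNNAA occurred in 3 of the 11 (Cidec, Plin1 and the Pparg window above), against 10.8% of all windows. RefSeq gives Cidec a second window (chr6:113435711-113436010), which held none of the motifs searched, and the one with the match is printed. The CCAAT letters occurred in 4 of the 11 and in 37.4% of all windows, with 3 matches in the Adipoq window. The full direct repeat AGGTCANAGGTCA, in 0.0396% of all windows, and the grainyhead letters AACCGGTT, in 0.146%, occurred in 0 of the 11. TATAAA occurred in 1, another Pparg window, and in 13.6% of all windows. The windows of Retn and Cfd held none of these letters. A match is a description of these letters only.

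As a check of the labels, the only Grhl3 probe set read 246, 413 and 380 in Get1 -/- replicates 1 to 3, against 478, 934 and 670 in Get1 +/+ replicates 1 to 3, with no overlap. Its log2 change was -0.98 ± 0.29 (SE), with an adjusted p of 0.737 in limma over all probe sets, and where the probes lie relative to the deletion is not stated. Values throughout are MAS5 signals in arbitrary units, which the deposited table has already scaled to a trimmed mean of 500 on every array. The 3′ beta-actin control probe set read 31440, 22558 and 26889 in Get1 -/- skin and 31441, 30902 and 23313 in Get1 +/+ skin. The ratio of its 3′ to its 5′ probe set lay between 1.36 and 1.49 in Get1 -/- skin and between 1.35 and 1.37 in Get1 +/+ skin. The 3′ Gapdh control probe set read 21375, 16717 and 22784 in Get1 -/- skin and 20959, 18034 and 19895 in Get1 +/+ skin. The 3′ to 5′ ratio of Gapdh was 0.84, 0.73 and 0.83 in Get1 -/- skin and 0.81, 0.69 and 0.78 in Get1 +/+ skin.

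No adipocyte gene passed the test between genotypes: 0 of the 13 probe sets reached an adjusted p under 0.05 in limma. Over all 22519 probe sets tested 0.0266% did, 6 probe sets, or 35 with the replicate number fitted as a block. The adjusted p of the 13 ran from 0.737 to 0.987. At an unadjusted p under 0.05 there were 2 of 13, 1 probe set each of Lpl and Cd36, both higher in Get1 -/- skin, where 2.97% of all probe sets were higher at that level and 6.72% differed in either direction. With the replicate block there were 4 of 13, also Lpl 1431056_a_at and Fabp4 1451263_a_at, beside 10.2% of all probe sets in either direction. The Lpl and Cd36 probe sets past that level without the block were the only ones with no overlap between genotypes, which 11.1% of all probe sets had. The fitted change was above 0 for 12 of the 13, beside 50.2% of all probe sets, and its median was 0.34 on the log2 scale, beside 0.0015 over all probe sets. Without Get1 -/- replicate 2 that median was 0.12. With only the brightest probe set of each of the 7 genes the median was 0.14, beside 0.0076 over all genes, and 0.015 without Get1 -/- replicate 2. Several probe sets are named for the same gene and were read on the same arrays, so the 12 changes above 0 are not independent. In bulk skin, the number of fat cells and the RNA per fat cell cannot be told apart.

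**Figure D1:**
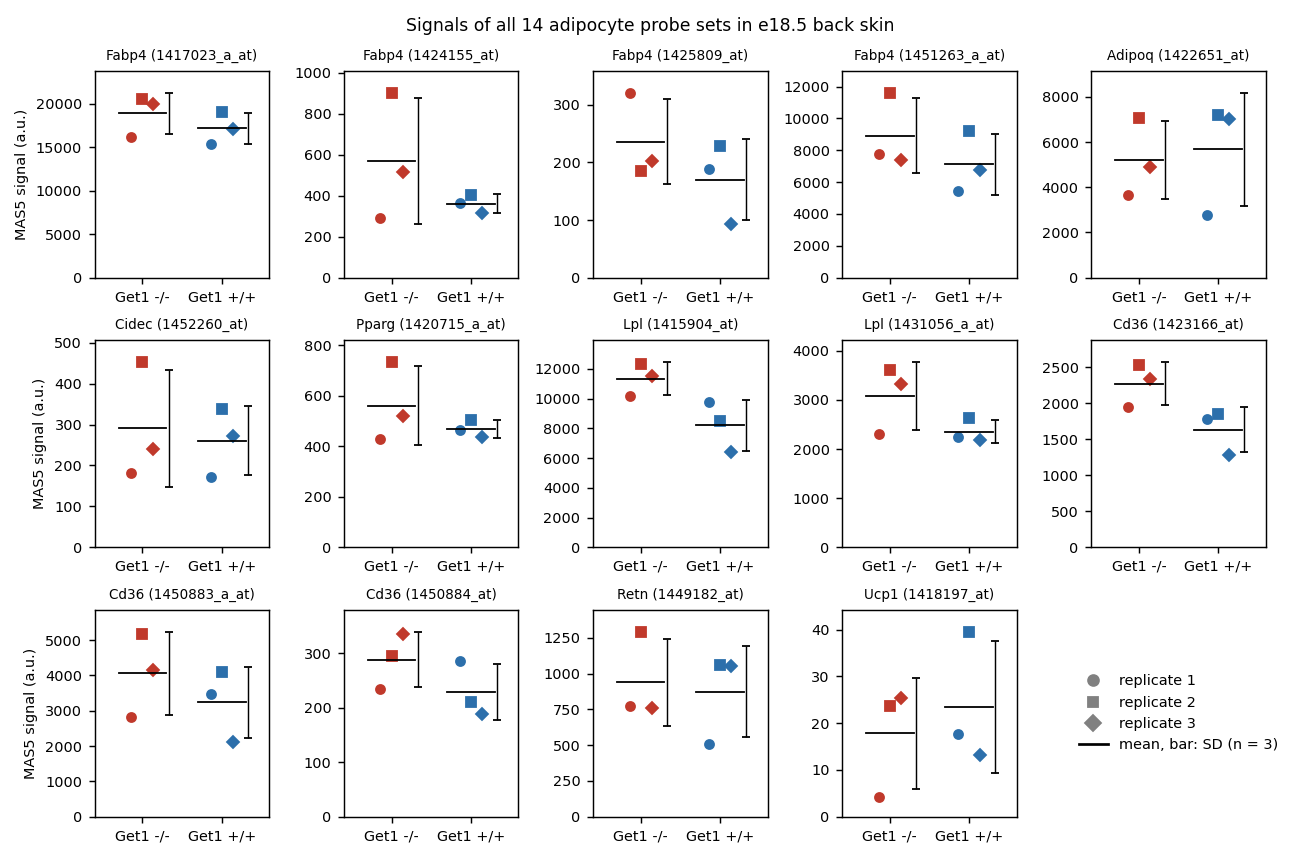
MAS5 signal (arbitrary units, linear axes from 0) of all 14 probe sets in Get1 -/- (left, red) and Get1 +/+ (right, blue) arrays, with marker shape for the replicate number, the mean as a line and the SD as a bar (n = 3). Only Lpl 1415904_at and Cd36 1423166_at have all Get1 -/- arrays above all Get1 +/+ arrays.

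Lpl, the lipoprotein lipase that feeds fatty acids to fat and muscle, had the smallest p of the list. Its probe set 1415904_at read 10175, 12340 and 11540 in Get1 -/- replicates 1 to 3 and 9767, 8480 and 6381 in Get1 +/+ replicates 1 to 3. All 3 Get1 -/- arrays lay above all 3 Get1 +/+ arrays, although Get1 -/- replicate 1 and Get1 +/+ replicate 1 lay close together. The means were 11352 ± 1095 in Get1 -/- and 8209 ± 1709 in Get1 +/+ skin (SD, n = 3 each), a log2 change of 0.48 ± 0.17 (SE), 1.40-fold (95% interval 0.11 to 0.86 on the log2 scale), with an adjusted p of 0.737 in limma. Probe set 1431056_a_at read 2310, 3617 and 3319 in Get1 -/- skin, against 2250, 2633 and 2187 in Get1 +/+ skin, with a log2 change of 0.37 ± 0.19 (SE). There Get1 -/- replicate 1 fell below Get1 +/+ replicate 2, so the genotypes overlapped.

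Cd36, the fatty acid translocase, is read by 3 probe sets, and all were higher on average in Get1 -/- skin without passing. Probe set 1423166_at read 1947, 2533 and 2331 in Get1 -/- replicates 1 to 3 and 1774, 1848 and 1282 in Get1 +/+ replicates 1 to 3. The genotypes did not overlap, and the log2 change was 0.48 ± 0.19 (SE), 1.40-fold, with an adjusted p of 0.737 in limma. The brighter probe set 1450883_a_at read 2830, 5176 and 4163 in Get1 -/- skin and 3478, 4107 and 2126 in Get1 +/+ skin. Its genotypes overlapped, and its log2 change was 0.34 ± 0.28 (SE). Probe set 1450884_at read 235, 295 and 335 in Get1 -/- skin, against 286, 211 and 189 in Get1 +/+ skin, with a log2 change of 0.34 ± 0.25 (SE) and overlap. Get1 +/+ replicate 3 was the lowest array for all 3 Cd36 and both Lpl probe sets. Without it the changes were 0.31 for Lpl 1415904_at, 0.32 for Cd36 1423166_at and 0.058 for Cd36 1450883_a_at.

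The beta-actin control differed between arrays, so the Lpl and Cd36 values are also given on either side of a control signal of 30000. This cut was chosen after the values were seen. It does not match the arrays closely, as Get1 -/- replicate 3, at 26889, lay between the other arrays. Among Get1 -/- replicate 1 and Get1 +/+ replicates 1 and 2, with a control above 30000, Lpl 1415904_at differed by 0.16 and Cd36 1423166_at by 0.10 on the log2 scale. Among the other 3 arrays they differed by 0.90 and 0.92. The remaining probe sets of both genes were lower in Get1 -/- skin in the first set and higher in the second. Lpl 1431056_a_at differed by -0.076 and 0.66, Cd36 1450883_a_at by -0.42 and 1.13, and Cd36 1450884_at by -0.067 and 0.74. Get1 -/- replicate 1 stands alone in the first set and Get1 +/+ replicate 3, the array lowest for both genes, in the second, so these values carry no test and do not separate the control signal from single arrays. The Gapdh control grouped the arrays otherwise, with replicate 2 of either genotype lowest. Between the replicate 2 arrays, Lpl 1415904_at differed by 0.54 and Cd36 1450883_a_at by 0.33, Get1 -/- minus Get1 +/+. The sets above thus depend on the control and the cut chosen. The part of the control signal in the result was not tested.

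**Figure D2:**
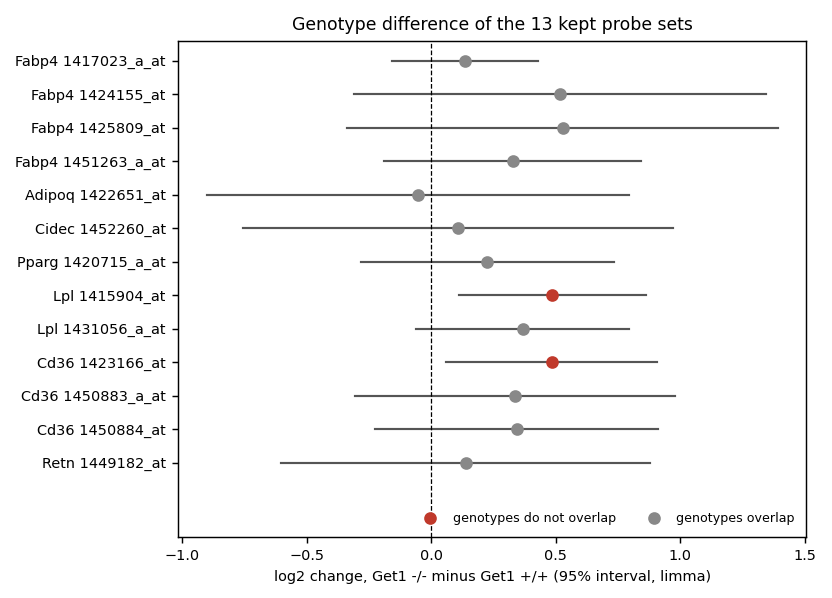
Log2 change, Get1 -/- minus Get1 +/+, of the 13 probe sets at or above the median signal, with 95% intervals from limma. The points of Lpl 1415904_at and Cd36 1423166_at (0.48 each) are the red ones, where genotypes do not overlap, and the Adipoq point lies at -0.05.

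Pparg, the receptor that drives fat cell formation, differed by less than its spread. Its 1 probe set read 430, 732 and 520 in Get1 -/- skin and 464, 506 and 437 in Get1 +/+ skin. Get1 -/- replicate 2 stood above the other arrays, and the remaining ones of both genotypes overlapped. The log2 change was 0.22 ± 0.22 (SE), and 0.015 without Get1 -/- replicate 2.

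Fabp4, the fatty acid binding protein of fat cells, varied least between arrays among the members on its brightest probe set. That probe set, 1417023_a_at, read 16170, 20510 and 20007 in Get1 -/- skin and 15395, 19028 and 17123 in Get1 +/+ skin, a log2 change of 0.13 ± 0.13 (SE), and its highest array was 1.33 times its lowest. Probe set 1451263_a_at read 7765, 11606 and 7362 in Get1 -/- skin and 5436, 9193 and 6732 in Get1 +/+ skin, with a log2 change of 0.33 ± 0.23 (SE) and overlap. The dimmer 1424155_at read 291, 901 and 516 in Get1 -/- skin, against 363, 405 and 316 in Get1 +/+ skin. There Get1 -/- replicate 2 stood alone, and its log2 change of 0.52 ± 0.36 (SE) was 0.11 without that array. Probe set 1425809_at read 321, 185 and 202 in Get1 -/- and 189, 229 and 92.9 in Get1 +/+ skin, with a log2 change of 0.53 ± 0.38 (SE) and overlap. It did not order the arrays as the other Fabp4 probe sets did, with Get1 -/- replicate 1 highest in place of replicate 2.

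The secreted and lipid droplet genes Adipoq, Retn and Cidec varied more between mice of 1 genotype than between genotypes. Adipoq, which encodes adiponectin, read 3643, 7070 and 4896 in Get1 -/- replicates 1 to 3 and 2783, 7215 and 7023 in Get1 +/+ replicates 1 to 3. The means were 5203 ± 1734 in Get1 -/- and 5674 ± 2505 in Get1 +/+ skin (SD, n = 3 each), with a log2 change of -0.05 ± 0.37 (SE) and a 95% interval from -0.90 to 0.79. Replicate 1 of either genotype was lowest, and Adipoq was the only member whose fitted change lay below 0 among those tested. Retn, which encodes resistin, read 773, 1292 and 757 in Get1 -/- skin and 508, 1060 and 1053 in Get1 +/+ skin, a log2 change of 0.14 ± 0.33 (SE). Cidec, a lipid droplet protein of white fat, read 181, 452 and 239 in Get1 -/- skin and 171, 338 and 273 in Get1 +/+ skin, a log2 change of 0.11 ± 0.38 (SE). Get1 +/+ replicate 1 was lowest for all 3 genes. Within-genotype spread on the log2 scale was wider for Adipoq than for 94.8% of all 22519 probe sets, for Cidec than for 93.2% and for Retn than for 90.1%. For Lpl 1415904_at that share was 45.8%. The intervals of these 3 genes leave room for a change in either direction: that of Cidec ran from -0.76 to 0.97 and that of Retn from -0.60 to 0.88.

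Ucp1, the marker of brown fat, had low signals on all 6 arrays. It read 4.24, 23.7 and 25.5 in Get1 -/- skin and 17.6, 39.5 and 13.3 in Get1 +/+ skin, all below the signal of 137 used as the filter. Without the filter its log2 change was -0.62 ± 0.88 (SE). The table holds no detection calls, so whether Ucp1 was detected is not stated.

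Seen array by array, the genotypes overlapped in the mean of the 7 tested genes, which the single genes followed to differing degrees. The mean of their log2 values, each centred on its own mean over the 6 arrays, was -0.25, 0.50 and 0.05 in Get1 -/- replicates 1 to 3 and -0.37, 0.19 and -0.11 in Get1 +/+ replicates 1 to 3. Both replicate 1 arrays were low and both replicate 2 arrays were high. The 3′ Gapdh control was lowest in both replicate 2 arrays, and its part in this pattern was not tested. Between mice with the same number, which the labels do not pair, the Get1 -/- mean was higher by 0.11, 0.31 and 0.16, in 3 of 3. On their brightest probe sets Lpl and Fabp4 were each higher in 3 of 3, and Adipoq in 1 of 3 (0.39, -0.03 and -0.52). Fabp4 1424155_at was lower in Get1 -/- replicate 1 (291 against 363), and Fabp4 1425809_at in replicate 2 (185 against 229). In limma with the replicate block 0 of the 13 probe sets passed, and the smallest adjusted p was 0.388, for Lpl 1415904_at. As a description over the 6 arrays, which share 2 genotypes, Cidec followed the mean of the other six members most closely (Pearson r = 0.93) and Fabp4 next (0.90). Lpl followed it least (0.21), then Cd36 (0.55).

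**Figure D3:**
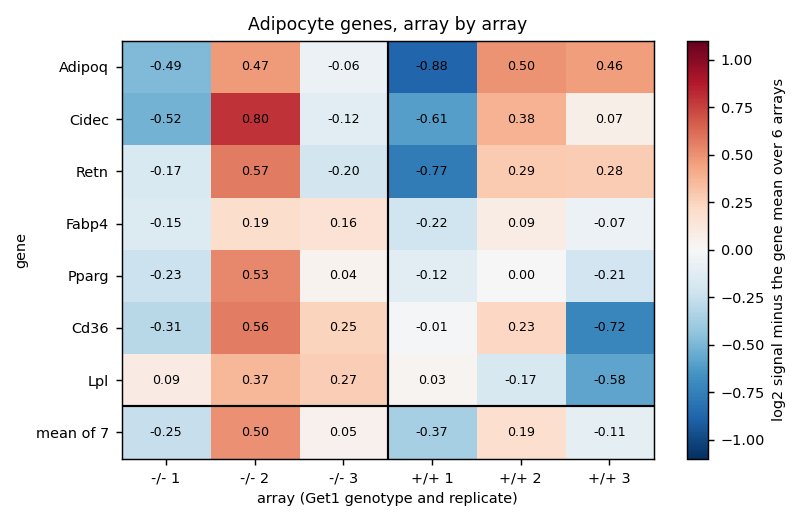
Log2 signal of the 7 tested genes (1 probe set each, the brightest) minus the gene's mean over the 6 arrays, for Get1 -/- arrays (left) and Get1 +/+ arrays (right), with the mean of the 7 genes in the bottom row. The replicate 1 columns are low in that row (-0.25 and -0.37) and the replicate 2 columns high (0.50 and 0.19), while Lpl and Cd36 are lowest in Get1 +/+ replicate 3.

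Among 11387 genes, the 8 others whose values followed the mean of the members most closely were Il34 (r = 0.996), Cep44, Acpp, Rcbtb2, Klk6, Agpat2, Wdr43 and Polr2b (r = 0.965), again as a description over 6 arrays. By the same r the members themselves ranked from 15 (Cidec) to 2373 (Lpl). Polr2b spanned only 0.17 on the log2 scale over the 6 arrays. Agpat2, an acyltransferase of triglyceride synthesis needed for fat tissue in mouse and human, read 712, 1195 and 871 in Get1 -/- skin and 629, 1024 and 872 in Get1 +/+ skin. Its replicate 1 arrays were low in both genotypes, as for Adipoq and Cidec (r = 0.974). Il34, a ligand of the macrophage receptor Csf1r made in epidermis, read 333, 522 and 400 in Get1 -/- skin and 316, 450 and 375 in Get1 +/+ skin. None of the 8 passed between genotypes, with adjusted p of 0.782 or higher in limma over all genes.

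Other genes of fat cells and their lipid pathways, on 5 lists, did not pass either. Of the 71 tested genes, each counted once, 0 passed in limma, beside 0.0439% of the 11387 genes. At an unadjusted p under 0.05 there were 10 of the 71, 5 of them higher, beside 8.18% of all genes. The genotypes did not overlap in 9 of the 71, beside 12% of all genes, and 40 of the 71 changes lay above 0, beside 51.3%. Adipogenic factors and stage markers had a median log2 change of 0.06 over 16 tested genes, beside 0.0076 over all genes, with 9 above 0 and 7 below. Cebpb, an early factor of fat cell formation that is also made in epidermis, read 2882, 3115 and 3050 in Get1 -/- skin and 3956, 4727 and 3989 in Get1 +/+ skin. The genotypes did not overlap, and the log2 change was -0.48 ± 0.13 (SE, adjusted p = 0.486 in limma). Its later partner Cebpa (-0.34 ± 0.18) and Ebf3 (0.59 ± 0.24) had the next smallest p. The membrane marker of fat cell precursors Dlk1 (0.06 ± 0.18) and the mesenchymal receptor Pdgfra (0.06 ± 0.18) stayed within their error.

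Triglyceride and lipid droplet genes had a median of 0.09 over 20 tested genes, with 12 above 0 and 8 below. Dgat2, which makes triglyceride in fat, liver and epidermis, read 1869, 2794 and 2597 in Get1 -/- skin and 3480, 4903 and 4545 in Get1 +/+ skin. The genotypes did not overlap, and the log2 change was -0.84 ± 0.19 (SE), with an adjusted p of 0.379 in limma and of 0.0494 with the replicate block. The lipase Pnpla2 (-0.40 ± 0.21) and its inhibitor G0s2 (0.56 ± 0.30) had overlapping values. The droplet coat genes Plin2 (0.12 ± 0.18) and Plin4 (0.08 ± 0.19) and the hormone-sensitive lipase Lipe (-0.33 ± 0.24) had values that overlapped too. Genes of fatty acid uptake and synthesis and of glucose uptake had a median of 0.04 over 17 tested genes, with 10 above 0 and 7 below. Thrsp, a lipogenic nuclear protein, differed by 0.73 ± 0.26, the malic enzyme Me1 by -0.60 ± 0.26 and the insulin receptor Insr by 0.49 ± 0.20 (SE), with adjusted p from 0.567 to 0.608 in limma.

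Other secreted factors and receptors had a median of -0.03 over 7 tested genes. Angptl4, a secreted inhibitor of Lpl and a target of PPAR factors, read 696, 644 and 748 in Get1 -/- skin and 541, 374 and 433 in Get1 +/+ skin. The genotypes did not overlap, with a log2 change of 0.64 ± 0.18 (SE, adjusted p = 0.497 in limma). Agt (-0.40 ± 0.16) and the adiponectin receptor Adipor1 (-0.27 ± 0.14) did not overlap either and did not pass. Leptin, the hormone of mature fat cells, lay below the filter. Brown fat genes had a median of 0.19 over 13 tested genes, with 9 above 0 and 4 below. Prdm16 (0.84 ± 0.35), Zic1 (-0.64 ± 0.24) and Cox8b (0.68 ± 0.33), the last a mitochondrial subunit also made in muscle, had the smallest p, and the genotypes overlapped for all 3. Ppargc1a and Ppara were below the filter.

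**Figure D4:**
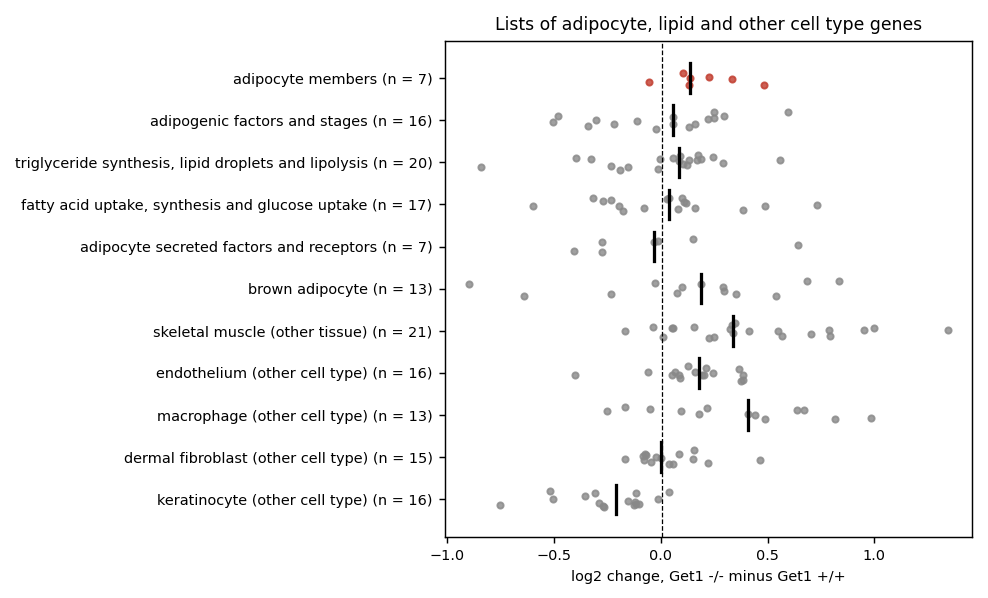
Log2 change, Get1 -/- minus Get1 +/+, of each tested gene by list, with the list's median as a black bar and the median of all 11387 genes as a dashed line. The adipocyte genes (red, median 0.14) lie among the values of the other lists, and the skeletal muscle and macrophage lists have medians of 0.34 and 0.41. With 1 array left out these medians run from 0.015 to 0.39, from 0.046 to 0.60 and from 0.28 to 0.50.

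Muscle and macrophages, which also make Lpl and Cd36, had marker lists with medians above 0 in Get1 -/- skin, by amounts that depended on single arrays or on how probe sets were combined. Over 21 tested skeletal muscle genes the median log2 change was 0.34, with 19 above 0 and 0 passing. Their summed signal was 228761, 166298 and 244527 in Get1 -/- skin and 212876, 141239 and 190163 in Get1 +/+ skin. The genotypes overlapped in that sum. Single arrays set the size of this median: leaving out Get1 -/- replicate 2 gave 0.60, leaving out Get1 -/- replicate 3 gave 0.19, and leaving out Get1 +/+ replicate 2 gave 0.046. Array weights put it at 0.63. Myh7 (1.35 ± 0.32), Tnnc1 (1.00 ± 0.25) and Tnni1 (0.95 ± 0.25), genes of slow muscle, were the only 3 of the 21 without overlap between genotypes, beside 12% of all genes. All 3 were higher in Get1 -/- skin, where 5.2% of all genes were higher without overlap. Tnnc1 passed with the replicate block (adjusted p = 0.0474 in limma). Actn3 (-0.17 ± 0.20) and Myh1 (-0.04 ± 0.29) were the 2 genes below 0.

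Macrophage genes had a median of 0.41 over 13 tested genes, with 10 above 0 and 0 passing. It was 0.22 with the mean of each gene's probe sets and 0.28 without Get1 -/- replicate 1. Their summed signal was 21585, 19428 and 20455 in Get1 -/- skin, above 16156, 14346 and 18314 in Get1 +/+ skin. Ptprc (0.99 ± 0.21), C1qa (0.64 ± 0.19) and Aif1 (0.82 ± 0.26) were among 6 of the 13 genes that were higher in Get1 -/- skin without overlap, where 5.2% of all genes were higher in Get1 -/- without overlap. Cd68 (-0.25 ± 0.29), Lyz2 (-0.17 ± 0.21) and Cd14 (-0.05 ± 0.46) were the 3 genes below 0, each with overlap between genotypes. The macrophage marker Itgam lay below the filter. Endothelial genes had a median of 0.18 over 16 tested genes, with 14 above 0 and 0 passing, and summed to 12799 to 16052 in Get1 -/- skin and 12167 to 13422 in Get1 +/+ skin. Their median was 0.048 without Get1 -/- replicate 3 and 0.27 without Get1 -/- replicate 2. Kdr (0.39 ± 0.18), Plvap (0.39 ± 0.21) and Robo4 (-0.40 ± 0.22) had the smallest p. The part of muscle, macrophage and endothelial RNA in the Lpl and Cd36 values was not tested.

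Fibroblast genes had a median of 0.002 over 15 tested genes, with 8 above 0 and 0 passing, and their sums overlapped (187239 to 221783 in Get1 -/- skin and 176925 to 221347 in Get1 +/+ skin). Postn (0.46 ± 0.22), Pdgfrb (0.22 ± 0.19) and Twist2 (-0.17 ± 0.13) had the smallest p. Keratinocyte genes had a median of -0.21 over 16 tested genes, with 15 below 0 and 0 passing. They summed to 174455 to 204268 in Get1 -/- skin, below 217896 to 229665 in Get1 +/+ skin, and Lor (-0.52 ± 0.21), Krt15 (-0.29 ± 0.13) and Flg (-0.51 ± 0.27) had the smallest p. Of the markers of fat cells, Adipoq read at least 2783, Retn at least 508 and Cidec at least 171 on all 6 arrays, while leptin and Ucp1 lay below the median signal of 137. With no detection calls, these levels do not settle how much fat the samples held.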

How the data were processed

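Expression was measured in back skin of 3 Get1 -/- and 3 Get1 +/+ mice, with 1 array for each of the 6 animals. The authors deposited linear signal intensities made with MAS5, per the labels, with no version, detection calls or genome build given in the sources used here. The 2% trimmed mean was 500 on every array, so no further scaling was applied. Signals were turned into log2, 64 controls were removed, and the 22519 of 45037 probe sets with a mean at or above the median entered the tests. The two-sided test was that of limma 3.58.1 under R 4.3.3, using eBayes with a trend of variance on mean, and Benjamini-Hochberg adjustment ran over all 22519 probe sets, or over 11387 genes (the brightest kept probe set of each) for the lists, at a threshold of 0.05. The script was tested on simulated data. Symbols came from the platform annotation, and 9160 probe sets have none there. Arrays correlated at 0.916 to 0.971, and their number limits the precision.

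The members and lists were chosen with earlier results of these data known. Named were all members, the 3 list genes with the smallest p, any that passed, Grhl3 and the 8 genes most like the members. Other list genes were named after their values were seen. Over probe sets, mice that carry 1 number deviated together from their genotypes' means, with correlations of 0.133, 0.26 and 0.14, all above 0.1. Over genes the correlations were -0.020, 0.36 and -0.025, so only 1 of 3 was above it. The main test took no account of the number, which was fitted as a block in an alternative. The labels name no shared litter or day. Alternatives changed the scaling (quantile, median), the filter (none, or the 70th percentile), the offset (37.6), the trend and the array weights, added the replicate block, left out each array, or averaged a gene's probe sets.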

Additional observations from a re-analysis of the deposited data

How the results depend on the processing

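Under all 14 alternatives run per probe set, 0 member probe sets passed, and the median log2 change over them stayed above 0, between 0.28 and 0.34 with all 6 arrays and between 0.12 and 0.45 with 1 array left out. The fitted sign of Adipoq, Cidec and Retn turned in 3 alternatives each, while the other probe sets kept theirs. Without Get1 +/+ replicate 1, Adipoq was at -0.51, Retn at -0.21 and Lpl 1415904_at at 0.62 with an adjusted p of 0.161, its smallest. Pparg ranged from 0.015 to 0.40 and Fabp4 1424155_at from 0.11 to 0.92 with Get1 -/- replicates 2 and 1 left out. Among all probe sets tested, 6 passed, 13 with median centring, 35 with the replicate block, and between 4 and 25 with 1 array left out (25 without Get1 +/+ replicate 1). With the replicate block 1 triglyceride gene (Dgat2) and 1 muscle gene (Tnnc1) passed, and the block changed no other call of a named gene. With 1 array left out, between 0 and 2 muscle genes and between 0 and 1 macrophage gene passed (Myh7, Myh3 and Ptprc without Get1 +/+ replicate 1), and in the other lists 0. Over the 7 tested adipocyte genes the median was 0.14, and 0.015 without Get1 -/- replicate 2. The medians of the adipogenic, triglyceride, fatty acid and secreted factor lists, all within 0.09 of 0 in the main fit, took both signs with 1 array left out. That of the secreted factor list moved from -0.03 to -0.27 without the filter, where its genes below the median signal entered too. Background was not measured in the deposited table, so how far low signals such as those of Ucp1 stand above it is unknown.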
